A study of Mus musculus with 111 samples.

Results

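Chemokines are small secreted proteins that direct the movement of leukocytes, and their receptors are the surface proteins that read them. The genes described here were all those of the array annotation whose symbol began with Ccl, Cxcl, Ccr or Cxcr followed directly by a digit, together with Cx3cl1, Cx3cr1, Xcl1 and Xcr1, from probe sets that listed a single gene. The rule found 50 genes, 33 ligands and 17 receptors, among 18194 genes with such a probe set, and each gene was read from its probe set with the highest mean signal. A filter on low signals (above the array's 40th percentile in at least 5 arrays) left 29 ligands and 13 receptors, 42 genes, among 16029 genes tested. The other 8 genes (the ligands Ccl3, Ccl20, Cxcl2 and Cxcl3 and the receptors Ccr3, Ccr7, Ccr8 and Ccr9) passed their array's 40th percentile in at most 3 of 111 arrays, with signals between 0.168 and 20.6. Of the tested genes Cxcl5 was nearest to the filter, with 9 arrays above it, and of the untested ones Ccr9 and Cxcl2 were nearest, with 3 arrays each. A gene could enter through a single group in which it was high, so each count below is read against the same count over all tested genes.

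Gastrocnemius muscle, a calf muscle, of male C57BL/6 mice aged 8 weeks was measured on 111 Affymetrix arrays, 1 muscle per array, from 70 mice. In casting animals the right hindlimb was held in a cast and the uncast left leg served as control, which gave 10 cast and 9 control legs on day 2, 7 cast and 8 control legs on day 7, and 9 of each on day 14. In tenotomy animals an Achilles tendon was cut under ether and ketamine-xylazine and the mice then moved freely, which gave 5 left legs labelled tenotomy and 5 right legs labelled control on day 2, with 7 of each on day 7 and 5 of each on day 14. In sham animals the tendon was exposed and handled but not cut (3, 7 and 8 right legs at these days), and naive animals were not manipulated (7 right legs). The 3 sham legs of day 2 were placed in this group by their titles, since their labels give no treatment, and every comparison with sham at day 2 rests on that. The labels name no transgene or engineered allele in any group. The description of the study puts the cut tendon on the right side, whereas in the array labels the left leg is the tenotomy leg and the right leg its control. The labels were kept here, every tenotomy leg is named by its side and its label, and both legs were also set against sham. The casting, tenotomy, and sham and naive animals were numbered as separate cohorts, so model and cohort cannot be told apart.

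The deposited values are signals that the authors had scaled to a common trimmed mean of about 100 in every array, so only relative levels within a probe set were compared, and the number of arrays limits the precision. The 5 tested markers of skeletal muscle fibres summed to signals of 23197 to 127600 in every array, with group means of 0.15 to 0.21 on the log2 scale above the naive mean in sham legs at days 2 and 7 and down to 1.13 below it in cast legs. In this whole tissue, fewer cells of a type and less RNA per cell cannot be told apart. The log2 ratio of the 3' to the 5' beta-actin probe sets, a sign of RNA quality, averaged -0.83 ± 0.17, -0.38 ± 0.32 and -0.58 ± 0.19 (SD) in left legs labelled tenotomy at days 2, 7 and 14, and -0.02 ± 0.30, 0.11 ± 0.47 and 0.08 ± 0.35 in right legs labelled control. Group means of this ratio lay between -0.73 and -0.33 in casting animals and between -1.31 and -1.12 in sham and naive animals. For Gapdh the same ratio averaged -0.27, -0.28 and -0.25 in left legs labelled tenotomy at days 2, 7 and 14. In right legs labelled control it averaged -0.25, -0.29 and -0.21, and the means of all groups lay between -0.29 and -0.17. The part of either ratio in the results below was not tested. One cast leg at day 2 (replicate 10) stood apart from the other 9 with high signals of several chemokine genes, and the casting counts at day 2 and the genes called there with all legs are also given without it. Cast leg replicate 1 at day 7 was likewise high for several of them, and counts at day 7 are also given without it.

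Chemokines are grouped by the spacing of their first cysteines (CC, CXC, CX3C and XC) and act through receptors that signal by G proteins. In injured muscle, Ccl2 and related ligands of Ccr2 draw inflammatory monocytes out of the blood, Cx3cl1 binds Cx3cr1 on monocytes and macrophages, Cxcl12 holds or draws cells that carry Cxcr4, and CXC ligands such as Cxcl1 and Cxcl5 draw neutrophils through Cxcr2. Cxcl9, Cxcl10 and Cxcl11 are induced by interferons and are read by Cxcr3 on T and NK cells.

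Several of the genes that moved most are neighbours in the genome, and the promoters of 5 of them are shown because they moved together (Ccl12 with Ccl8, Ccl9 with Ccl6) or carry the motifs searched for (Cxcl10). Ccl2, Ccl7 and Ccl11, neighbours of Ccl12 and Ccl8, had no promoter entry and are not shown. The sequences are the 250 bases before the start of each gene from RefSeq, build GRCm38.p6, written 5′ to 3′ on the strand of the gene. The intervals are chr11:82101595-82101844, plus strand, for Ccl12, chr11:82114935-82115184, plus strand, for Ccl8, chr11:83578637-83578886, minus strand, for Ccl9, chr11:83593088-83593337, minus strand, for Ccl6, and chr5:92348890-92349139, minus strand, for Cxcl10. Capitals mark matches on either strand to the TATA box (TATAAA), the interferon-stimulated response element and the NF-kB consensus.
Ccl12: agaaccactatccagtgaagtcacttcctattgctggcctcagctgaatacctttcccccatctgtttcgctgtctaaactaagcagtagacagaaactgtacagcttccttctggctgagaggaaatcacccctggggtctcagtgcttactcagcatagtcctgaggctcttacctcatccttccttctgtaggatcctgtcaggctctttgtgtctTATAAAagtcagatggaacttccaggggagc
Ccl8: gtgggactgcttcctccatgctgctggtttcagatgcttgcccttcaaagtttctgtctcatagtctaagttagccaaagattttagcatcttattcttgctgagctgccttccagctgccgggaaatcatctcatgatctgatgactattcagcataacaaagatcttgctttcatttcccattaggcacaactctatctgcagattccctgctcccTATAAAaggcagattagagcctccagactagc
Ccl9: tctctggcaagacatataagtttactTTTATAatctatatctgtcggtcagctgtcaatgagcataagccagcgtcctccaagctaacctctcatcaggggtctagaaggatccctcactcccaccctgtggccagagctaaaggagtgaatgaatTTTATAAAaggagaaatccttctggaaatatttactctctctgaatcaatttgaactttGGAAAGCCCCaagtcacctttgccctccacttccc
Ccl6: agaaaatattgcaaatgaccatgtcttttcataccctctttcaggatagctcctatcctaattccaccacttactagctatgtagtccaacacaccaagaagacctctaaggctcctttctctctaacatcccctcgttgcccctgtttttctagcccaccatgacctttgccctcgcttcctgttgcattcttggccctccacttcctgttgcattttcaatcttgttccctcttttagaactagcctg
Cxcl10: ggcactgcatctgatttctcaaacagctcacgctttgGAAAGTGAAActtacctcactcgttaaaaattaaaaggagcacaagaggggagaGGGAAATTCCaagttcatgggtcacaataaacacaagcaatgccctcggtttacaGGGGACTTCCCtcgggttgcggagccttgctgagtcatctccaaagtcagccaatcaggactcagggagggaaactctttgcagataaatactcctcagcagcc
Positions are counted back from the start of the gene, with -1 the last base shown. The TATA box began at position -31 in Ccl12 and at -32 in Ccl8, and neither of the other motifs matched. Ccl9 held an NF-kB match from position -35 and 3 TATA box matches, of which 2 overlapped on opposite strands, and no motif matched in Ccl6. Cxcl10 held NF-kB matches from positions -159, -104 and -103, of which the last 2 overlapped, and an interferon-stimulated response element from -213. Of the 50 genes 37 had an entry in the promoter table, and 9 of them (24.32%) matched the NF-kB consensus, against 7.01% of 27025 mouse promoters of the same length. The 9 were Ccl1, Ccl9, Ccl20, Cxcl1, Cxcl2, Cxcl3, Cxcl10, Ccr1 and Ccr3. Of these, Ccl20, Cxcl2, Cxcl3 and Ccr3 were among the genes too dim to be tested, so the share does not describe the genes that moved. The response element matched in 2 of the 37 (Cxcl10 and Cxcl14, 5.41% against 3.04%) and the TATA box in 11 (29.73% against 12.97%). A match describes the letters and is not a site of binding.

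Across the 16 groups, the mean level of the tested chemokine genes was highest in the right legs labelled control of tenotomy animals at day 2 and in cast legs at day 14. The mean of the 42 genes, relative to naive muscle on the log2 scale, was 0.81 ± 0.13, 0.65 ± 0.20 and 0.41 ± 0.10 (SD over arrays) in these legs at days 2, 7 and 14, and -0.10 ± 0.11, 0.09 ± 0.13 and 0.05 ± 0.15 in the left legs labelled tenotomy. In cast legs it was 0.19 ± 0.16, 0.46 ± 0.16 and 0.71 ± 0.26, and in the uncast legs of the same animals 0.42 ± 0.28, 0.30 ± 0.21 and 0.28 ± 0.16. In sham legs it stayed between -0.01 and 0.08. The map of group means gives each gene.

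**Figure D1:**
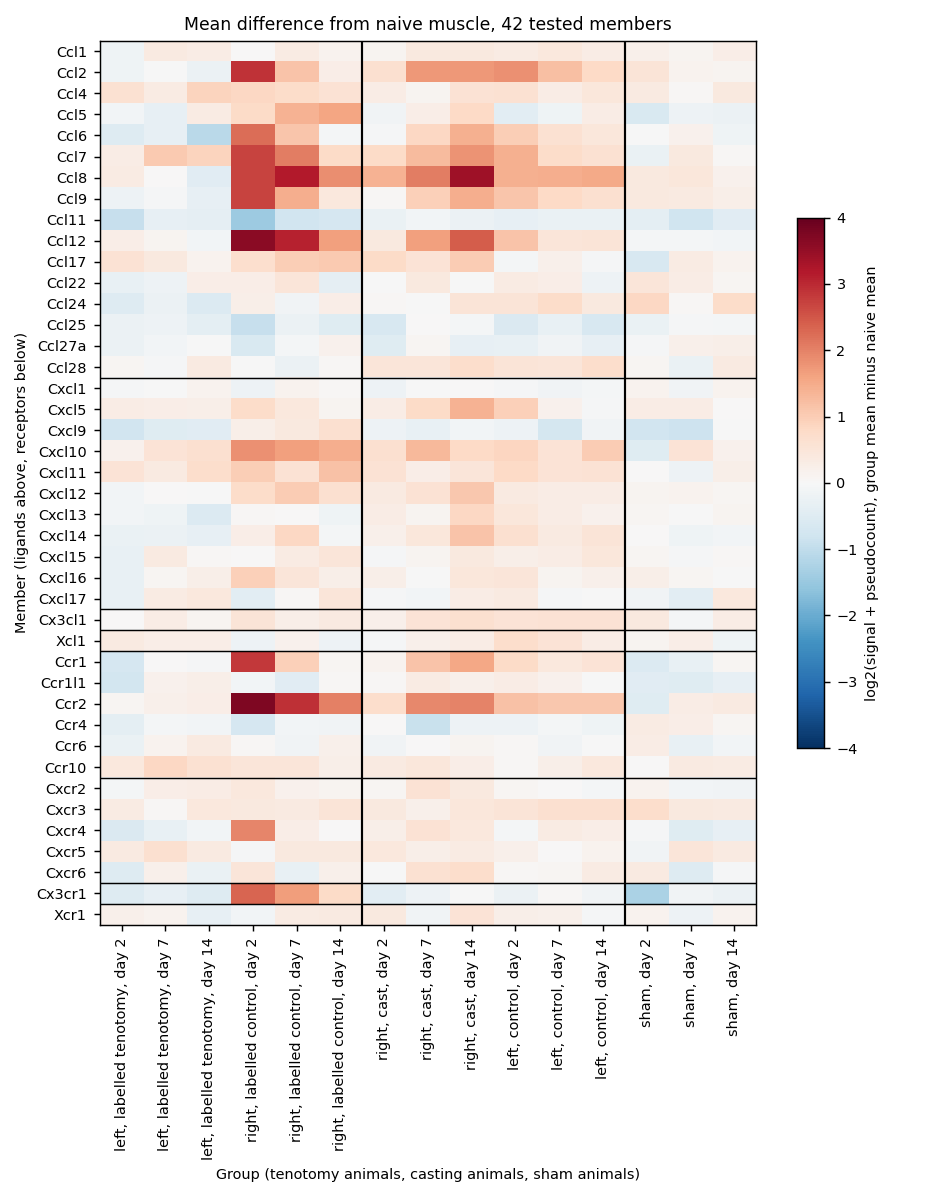
Mean log2 signal of each of the 42 tested genes (rows, ligands above and receptors below) in 15 groups (columns), as a difference from the mean of 7 naive muscles, in colour from -4 (blue) to 4 (red). The strongest red lies in the right legs labelled control of tenotomy animals at day 2 (Ccl12, Ccr2, Ccl2, Ccl7, Ccl8, Ccl9, Ccr1), with Ccl8, Ccl12 and Ccr2 red in these legs at day 7 and Ccl8 and Ccl12 in cast legs at day 14, and sham columns are mostly pale.

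The first comparison asked how chemokine genes differed between the 2 legs of tenotomy animals at day 2. Left legs labelled tenotomy had lower signals than right legs labelled control for 14 of 42 genes and higher signals for 2, against 20.8% and 15.9% of all tested genes. The 14 were 9 ligands, led by the monocyte-attracting Ccl12 and Ccl2, and 5 receptors, led by Ccr2 and Ccr1. Tests were limma's moderated test in 1 model of all 111 arrays with the animal as a random block, adjusted by Benjamini and Hochberg's method over all tested genes, with a threshold of 0.05. Log2 differences here and below are of log2(signal + 3.982), which shrinks the change of dim genes, so every order of genes by size holds on this scale only.

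Among the CC ligands, Ccl2, the main attractant of inflammatory monocytes, had signals of 4.43, 11.8, 2.08, 3.20 and 3.75 in left legs labelled tenotomy, against 40.4, 70.3, 97.9, 47.9 and 101 in right legs labelled control. Each right leg lay above every left leg (log2 difference -3.06 ± 0.45 SE, adjusted p = 8.78e-09). Ccl12, a ligand of Ccr2 found in mice, had signals of 15.2, 1.54, 2.04, 4.71 and 1.75 in left legs, against 68.0, 85.5, 86.5, 49.7 and 98.7 in right legs (log2 difference -3.32 ± 0.51 SE, adjusted p = 3.74e-08). Ccl7, another monocyte chemoattractant, had signals of 13.3, 1.24, 7.12, 11.1 and 9.69 in left legs and 30.8, 52.4, 103, 45.9 and 80.0 in right legs (log2 difference -2.41 ± 0.38 SE, adjusted p = 7.56e-08). The groups of both genes were fully apart. Ccl8, of the same subfamily, had signals of 49.8, 36.0, 62.7, 53.6 and 53.6 in left legs, against 296, 287, 531, 134 and 270.5 in right legs (log2 difference -2.37 ± 0.44 SE, adjusted p = 3.26e-06). Ccl9 and Ccl6, mouse ligands of Ccr1, were also apart in all arrays. Ccl9 had signals of 151, 99.3, 92.3, 122 and 60.1 in left legs and 746, 712, 1119, 555 and 920.0 in right legs (log2 difference -2.92 ± 0.33 SE, adjusted p = 1.37e-12), and the log2 difference of Ccl6 was -2.75 (adjusted p = 3.84e-10).

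Among the receptors, Ccr2, which monocytes use to follow Ccl2, had signals of 23.9, 16.6, 10.0, 43.8 and 17.0 in left legs labelled tenotomy, against 246, 332, 366, 203 and 363 in right legs labelled control. Every right leg lay far above every left leg, and the log2 difference was the largest of the 42 genes on this scale (log2 difference -3.63 ± 0.31 SE, adjusted p = 2.21e-18). Ccr1, a receptor of monocytes and neutrophils, had signals of 10.1, 13.1, 5.38, 7.33 and 0.727 in left legs and 123, 90.9, 119, 84.6 and 163 in right legs (log2 difference -3.49 ± 0.34 SE, adjusted p = 1.87e-15). Cx3cr1, the fractalkine receptor of monocytes and macrophages, had signals of 3.96, 12.8, 8.80, 14.5 and 4.03 in left legs and 85.8, 67.7, 80.3, 90.6 and 93.4 in right legs (log2 difference -2.86 ± 0.34 SE, adjusted p = 7.40e-12). All 3 receptors were without overlap. Ccr1, Cx3cr1 and the ligand Ccl12 passed their array's 40th percentile in only 1 of 5 left legs each, against 4 of 5 for Ccr2, so their order against Ccr2 is not settled. Cxcr4, the receptor of Cxcl12, had signals of 22.4, 15.0, 13.5, 24.2 and 19.6 in left legs and 166, 80.2, 108, 140.4 and 159 in right legs (log2 difference -2.53 ± 0.22 SE, adjusted p = 1.75e-18). Cxcr6, the receptor of Cxcl16 on T and NK cells, was lower with overlapping groups (log2 difference -1.02 ± 0.36 SE, adjusted p = 0.016), and it was not called without left-leg replicate 3 (adjusted p = 0.1).

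The CXC ligands differed less. Cxcl10, an interferon-induced ligand, had signals of 14.3, 15.5, 7.74, 7.00 and 2.71 in left legs labelled tenotomy and 42.9, 59.6, 31.5, 31.4 and 23.8 in right legs labelled control (log2 difference -1.68 ± 0.39 SE, adjusted p = 2.46e-04). Cxcl16, a transmembrane ligand, had signals of 54.7, 55.2, 16.2, 52.2 and 10.7 in left legs and 101, 72.3, 106, 60.7 and 73.8 in right legs (log2 difference -1.25 ± 0.26 SE, adjusted p = 3.27e-05), and its second, dimmer probe set gave a log2 difference of -3.55. Cxcl12, which tissue cells make in quantity, had signals of 338, 252, 226, 269 and 276 in left legs and 356, 549.6, 874, 340.0 and 448 in right legs (log2 difference -0.83 ± 0.19 SE, adjusted p = 1.32e-04). In all 3 ligands no left leg reached the lowest right leg. The 3 probe sets of Cxcl12 disagreed in this comparison, with log2 differences of -0.83 for the one used, 0.05 for one of nearly equal signal and -0.70 for a dim one. Cx3cl1, the membrane-bound ligand of Cx3cr1, had signals of 24.1, 16.4, 15.5, 17.6 and 16.4 in left legs and 29.5, 26.4, 28.9, 22.8 and 27.1 in right legs and did not pass the threshold (log2 difference -0.50 ± 0.25 SE, adjusted p = 0.111).

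The 2 genes higher in left legs labelled tenotomy at day 2 were Ccl25 and Ccl11. Ccl25, a ligand of Ccr9 known from thymus and gut, had signals of 67.2, 68.1, 82.0, 84.0 and 71.2 in left legs and 33.2, 50.3, 76.8, 36.7 and 39.0 in right legs (log2 difference 0.67 ± 0.19 SE, adjusted p = 0.0022). Ccl11, or eotaxin, which draws eosinophils through Ccr3, had signals of 103, 83.9, 71.3, 73.8 and 59.8 in left legs and 30.2, 94.3, 111, 49.2 and 23.2 in right legs (log2 difference 0.53 ± 0.19 SE, adjusted p = 0.0205). In both genes the legs overlapped. The Ccl11 call was lost when only the compared groups were fitted (adjusted p = 0.221), and without left-leg replicate 1, right-leg replicate 1 or right-leg replicate 5 (adjusted p = 0.112, 0.17 and 0.323).

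At day 7 left legs labelled tenotomy had lower signals than right legs labelled control for 14 of 42 genes and higher signals for 1, against 18.3% and 14.6% of all tested genes. Ccl8 was now first on the list, followed by Ccl12 and Ccr2 of the monocyte axis. Ccl8 had signals between 23.2 and 74.0 with a median of 37.4 in 7 left legs, against signals between 147 and 985 with a median of 396 in 7 right legs (log2 difference -3.15 ± 0.37 SE, adjusted p = 8.90e-12). Ccl12 had signals between 1.15 and 14.4 with a median of 1.80 in left legs, against values between 33.1 and 85.1 with a median of 48.5 in right legs (log2 difference -2.96 ± 0.43 SE, adjusted p = 1.34e-08). Ccr2 had signals between 14.9 and 30.1 with a median of 24.3 in left legs, against values between 102 and 250.0 with a median of 156 in right legs (log2 difference -2.71 ± 0.26 SE, adjusted p = 3.00e-15). Neither these 3 genes nor Cx3cr1 (between 2.59 and 30.3 with a median of 8.56 in left legs, between 34.2 and 80.6 with a median of 45.2 in right legs, log2 difference -2.01) overlapped between legs.

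Other genes lower in left legs at day 7 had smaller differences. Ccl5, an attractant of T cells and monocytes, had signals between 1.03 and 7.91 with a median of 2.28 in left legs and between 5.10 and 79.5 with a median of 17.2 in right legs (log2 difference -1.72 ± 0.37 SE, adjusted p = 8.65e-05). Ccl2 had signals between 2.11 and 11.9 with a median of 4.80 in left legs and between 7.13 and 34.5 with a median of 16.0 in right legs, which overlapped (log2 difference -1.17 ± 0.38 SE, adjusted p = 0.0103). Cxcl12 had signals between 249 and 367 with a median of 285 in left legs and between 387 and 951 with a median of 558 in right legs, with no overlap (log2 difference -0.99 ± 0.16 SE, adjusted p = 1.51e-07), but the mean of its 3 probe sets gave a log2 difference of -0.24 (adjusted p = 0.254). The log2 differences of the remaining called genes were -1.48 for Ccl9, -1.44 for Ccl6, -1.09 for Cxcl10, -1.07 for Cxcl14, -1.01 for Ccl7, -0.95 for Ccr1 and -0.56 for Cxcr4. Cxcl14 is a chemokine made by many resident tissue cells. Cxcr4, without overlap at day 2, now overlapped, with signals between 15.2 and 28.7 with a median of 23.1 in left legs and between 16.6 and 68.8 with a median of 33.7 in right legs, and lost its call when only the compared groups were fitted (adjusted p = 0.0783). Ccl11 was the 1 gene higher in left legs (log2 difference 0.43 ± 0.16 SE, adjusted p = 0.0316), in 7 of 7 animals, and was not called without the 12 arrays whose dimmest signals were raised (20th percentile above 5) (adjusted p = 0.222).

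By day 14 the difference covered 7 of 42 genes, all lower in left legs labelled tenotomy, against 13.5% of all tested genes lower and 9.71% higher. This count of lower genes was near the share over all tested genes. Ccl8 had signals of 36.9, 22.9, 48.5, 19.3 and 19.3 in left legs, against 127, 84.6, 412, 121 and 151 in right legs labelled control (log2 difference -2.31 ± 0.44 SE, adjusted p = 2.31e-05). Ccr2 had signals of 20.0, 18.2, 35.7, 19.1 and 25.1 in left legs, against 87.6, 76.9, 86.3, 108 and 75.7 in right legs (log2 difference -1.73 ± 0.31 SE, adjusted p = 8.28e-06). Both genes were still without overlap. Ccl9 was without overlap too but did not pass (log2 difference -0.74 ± 0.34 SE, adjusted p = 0.105). Ccl12 (log2 difference -1.77 ± 0.52 SE, adjusted p = 0.0061) and Cx3cr1 (log2 difference -1.31 ± 0.34 SE, adjusted p = 0.00212) overlapped between legs, and the Cx3cr1 call was lost with the mean of its 2 probe sets (adjusted p = 0.081). Cxcl12 was lower with a log2 difference of -0.66 (adjusted p = 0.00511), and was not called with the mean of its probe sets (adjusted p = 0.319). The calls of Ccl5 (-1.22) and Ccl6 (-0.997) were each lost under several settings, with the animal as a fixed term among them (adjusted p = 0.0517 and 0.0518). Ccl2 had signals of 2.15, 16.4, 2.32, 2.02 and 3.47 in left legs and 9.12, 2.44, 6.17, 23.1 and 4.56 in right legs and no longer passed (log2 difference -0.46 ± 0.45 SE, adjusted p = 0.517). Cxcr4, with 29.8, 11.4, 38.9, 31.8 and 32.2 in left legs and 32.5, 34.3, 30.2, 21.8 and 30.6 in right legs, did not pass either (log2 difference -0.12, 95% interval -0.55 to 0.31).

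**Figure D2:**
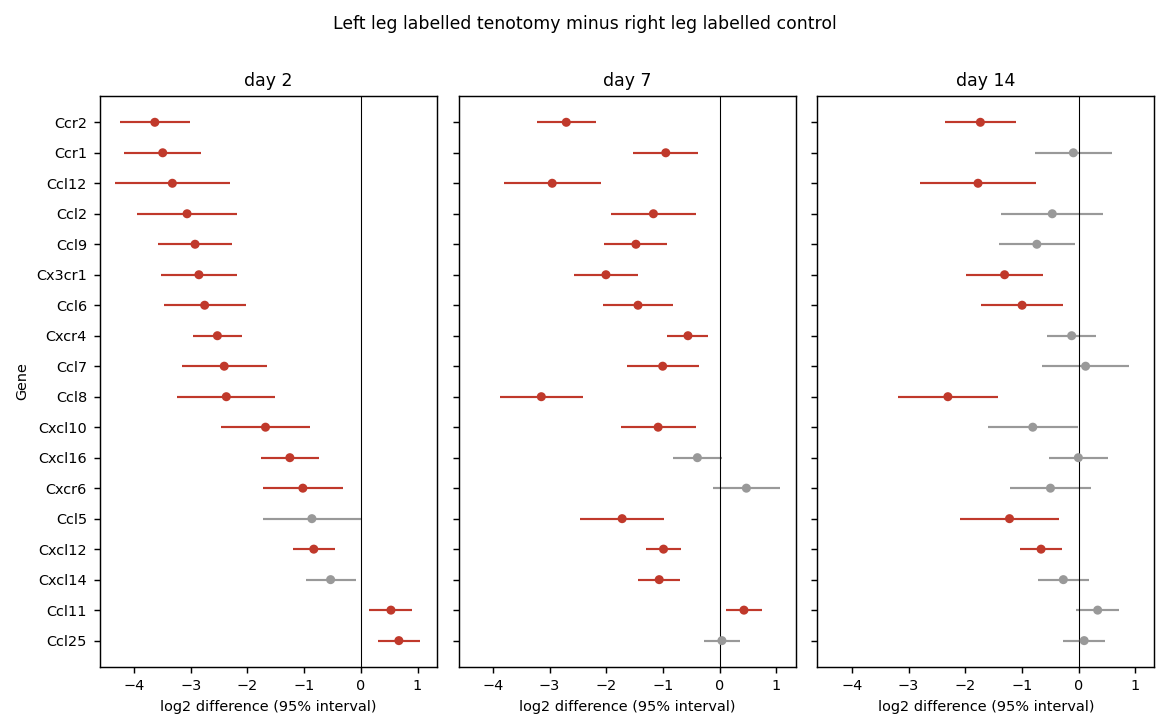
Log2 difference of the left leg labelled tenotomy minus the right leg labelled control (x axis, with 95% intervals) for the 18 genes called on at least 1 day, at days 2, 7 and 14; red points passed the adjusted threshold and grey points did not. Most points lie left of 0 at day 2, with Ccr2 at -3.63, and the spread narrows towards day 14, where 7 are red.

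The change of this leg difference with time was tested as an interaction. The difference between day 14 and day 2 passed for 9 of 42 genes, all with a positive sign, against 5.28% of all tested genes with a positive sign and 2.86% with a negative one. The largest were Ccr1 (log2 difference 3.40 ± 0.49 SE, adjusted p = 2.39e-07), Ccl2 (log2 difference 2.60 ± 0.64 SE, adjusted p = 0.00297) and Ccl7 (log2 difference 2.53 ± 0.54 SE, adjusted p = 5.44e-04). Cxcr4, Ccl9, Ccr2, Ccl6, Cx3cr1 and Cxcl16 also passed. Ccl8, with leg differences of -2.37 at day 2 and -2.31 at day 14, was not among them.

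Since the labels and the description disagree on the operated leg, each leg of the tenotomy animals was also set against sham legs of the same day. More genes differed from sham in the right legs labelled control than in the left legs. At day 2 they had higher signals than sham legs for 15 of 42 genes and lower signals for 3, against 19.6% and 15.5% of all tested genes. At day 7 they were higher for 17 and lower for 0 (23.5% and 17.7% of all tested genes), and at day 14 higher for 9 and lower for 1 (20.6% and 15.3%), so that the count of higher genes at day 14 was near that over all tested genes. The left legs labelled tenotomy differed from sham in 0 genes at day 2 by limma, with 5 at an unadjusted p under 0.05, against 4.34% of all tested genes higher and 5.66% lower. At day 7 they were higher for 1 and lower for 0 (9.7% and 9.45%), and at day 14 higher for 0 and lower for 2 (10% and 10.7%). These comparisons share the tenotomy arrays with the leg comparisons above and the sham arrays with each other.

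Against the 3 sham legs of day 2, the receptor Ccr2 had the largest log2 difference on this scale, with 246, 332, 366, 203 and 363 in right legs labelled control and 14.1, 14.1 and 8.98 in sham legs (log2 difference 4.21 ± 0.38 SE, adjusted p = 6.77e-17). Cx3cr1 was 85.8, 67.7, 80.3, 90.6 and 93.4 in right legs and 4.50, 3.39 and 1.92 in sham legs (log2 difference 3.60 ± 0.41 SE, adjusted p = 2.52e-12). Ccl2 was 40.4, 70.3, 97.9, 47.9 and 101 in right legs and 16.6, 4.11 and 11.0 in sham legs (log2 difference 2.39 ± 0.54 SE, adjusted p = 1.70e-04). In all 3 genes every right leg lay above every sham leg. Cx3cr1 and Ccl12 passed their array's 40th percentile in 0 of the 3 sham legs, so the order of Ccr2 and these genes is not settled. Cxcr4 was higher in right legs by 2.02 on the log2 scale (adjusted p = 2.97e-10), without overlap, and Cxcl12 by 0.63 with overlap (adjusted p = 0.0221). Other genes higher in right legs were Ccl12 (3.67), Ccr1 (3.36), Ccl7 (2.98), Cxcl10 (2.33), Ccl9 (2.32), Ccl8 (2.32), Ccl6 (2.25), Ccl5 (1.37), Ccl17 (1.31) and Cxcl11 (0.97), the values being log2 differences. The calls of Ccl5, Ccl17, Cxcl11 and Cxcl12 were each lost when 1 sham leg was left out, with adjusted p of 0.113, 0.075, 0.39 and 0.138 at the sham leg that moved each most. The probe sets of Cxcl12 also disagreed in sign here, with log2 differences of 0.63 for the one used and -0.71 and -0.13 for the others.

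The 3 genes lower in right legs labelled control than in sham at day 2 were Ccl11, Ccl25 and Ccl27a, a skin-associated ligand of Ccr10. Ccl11 had signals of 30.2, 94.3, 111, 49.2 and 23.2 in right legs and 106, 141 and 102 in sham legs (log2 difference -1.09 ± 0.23 SE, adjusted p = 6.25e-05). Ccl25 differed by -0.63 (adjusted p = 0.0221) and Ccl27a by -0.56 (adjusted p = 0.0108), and both calls were lost when 1 sham leg was left out (adjusted p = 0.19 and 0.0968).

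At day 7 the genes farthest above sham in right legs labelled control were Ccl12 (log2 difference 3.15 ± 0.45 SE, adjusted p = 5.54e-09), Ccl8 (log2 difference 2.71 ± 0.39 SE, adjusted p = 4.93e-09) and Ccr2 (log2 difference 2.63 ± 0.28 SE, adjusted p = 5.00e-14), followed by Cx3cr1 (1.80), Ccl7 (1.66), Ccl5 (1.59) and Ccr1 (1.25). Cxcl9, an interferon-induced ligand called on no other day, was higher by 1.23 (adjusted p = 0.0274), and lost its call under quantile normalization (adjusted p = 0.0663) and with the mean of its probe sets (adjusted p = 0.126). Smaller log2 differences were found for Ccl9 (1.09), Cxcl10 (1.09), Cxcl14 (1.02), Ccl2 (1.00), Ccl6 (0.96), Cxcl12 (0.88), Cxcl11 (0.76), Cxcr4 (0.74) and Ccl4 (0.68). Quantile normalization also ended the calls of Ccl2, Ccl4 and Cxcl11 (adjusted p = 0.0865, 0.0623 and 0.0795), and the mean of its probe sets that of Cxcl12 (adjusted p = 0.232). Sham legs at day 7 had Ccr2 signals between 10.5 and 42.8 with a median of 25.7, below all right legs of that day.

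At day 14 Ccl5 was the largest difference between right legs labelled control and sham legs. Its signals were 24.5, 17.3, 21.2, 16.9 and 22.8 in right legs, all above the 8 sham legs, which lay between 0.787 and 11.3 with a median of 2.70 (log2 difference 1.79 ± 0.42 SE, adjusted p = 2.52e-04). Ccr2 had signals of 87.6, 76.9, 86.3, 108 and 75.7 in right legs and lay between 12.6 and 35.2 with a median of 25.9 in sham legs, again without overlap (log2 difference 1.65 ± 0.29 SE, adjusted p = 2.12e-06). Ccl12 (1.76), Ccl8 (1.66), Cxcl10 (1.26), Cx3cr1 (1.02), Cxcl11 (0.93), Ccl17 (0.92) and Cxcl12 (0.57) were higher as well, on the log2 scale, and Ccl25 was lower (-0.44). The calls of Cxcl11 and Ccl17 were lost under quantile normalization (adjusted p = 0.0518 and 0.118), and that of Ccl25 when only the compared groups were fitted (adjusted p = 0.0587). With the mean of its probe sets Cxcl12 had the opposite sign (-0.16, adjusted p = 0.516). Ccl2 (0.15, 95% interval -0.69 to 0.99), Cx3cl1 (0.07) and Cxcr4 (0.35) did not pass.

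In left legs labelled tenotomy the few genes that differed from sham were Ccl11 at day 7, higher (log2 difference 0.48 ± 0.17 SE, adjusted p = 0.0365), and Ccl24 and Ccl6 at day 14, lower (log2 difference -1.27 ± 0.37 SE, adjusted p = 0.00736 for Ccl24, log2 difference -0.90 ± 0.35 SE, adjusted p = 0.0492 for Ccl6). Ccl24, or eotaxin-2, draws eosinophils through Ccr3, and had signals of 16.8, 9.11, 4.96, 9.93 and 2.64 in left legs, against values between 15.3 and 48.1 with a median of 23.6 in sham legs. The Ccl6 call was lost under 10 of its alternatives. Ccl11 was itself lower in sham than in naive legs at day 7 (log2 difference -0.81 ± 0.17 SE, adjusted p = 0.00246). Its comparison with sham at day 7 rests on these sham legs. Ccr2 differed from sham in left legs by 0.57, -0.08 and -0.08 at days 2, 7 and 14 (95% intervals -0.18 to 1.32, -0.62 to 0.47 and -0.67 to 0.50).

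Markers of monocytes and macrophages moved with these genes. All 9 listed markers were lower in left legs labelled tenotomy than in right legs labelled control on days 2 and 7, and 7 of the 9 on day 14. Of all tested genes 20.8%, 18.3% and 13.5% were lower at days 2, 7 and 14, and 15.9%, 14.6% and 9.71% higher. Beside these shares, 1 call in a list of 3 to 5 markers says little. The summed signal of the 9 markers lay at 738 to 1514 in left legs and 9995 to 12723 in right legs on day 2. On day 7 it lay at 839 to 1756 in left and 2982 to 7424 in right legs, and on day 14 at 909.9 to 1308 in left and 2151 to 3614 in right legs. The single markers at day 2 had log2 differences between -5.59 (Mpeg1) and -1.59 (Cd163). Of 4 tested neutrophil markers 1, Csf3r, was lower at day 2 (-2.39, adjusted p = 1.28e-06), and the summed signal of the 4 overlapped, at 36.6 to 2277 in left legs and 106 to 328 in right legs. None of the tested markers of T cells (5) or B cells (4) was called on day 2, and 1 of 3 NK cell markers was lower. Markers of other cell types were called too. Of 4 fibroblast markers 3, 4 and 3 were lower in left legs at days 2, 7 and 14, with summed signals of 4108 to 8242 in left and 8292 to 14831 in right legs on day 2, 5156 to 12992 and 11573 to 18471 on day 7 and 4334 to 10423 and 12685 to 17117 on day 14. Of 5 eosinophil and mast cell markers 2 were lower at day 2, Cpa3 and Cma1, and of 3 lymphatic endothelial markers 1, Lyve1. Of 3 dendritic cell markers 2 were lower at day 2, Itgax and Flt3, and of 4 endothelial markers Pecam1 was lower and Kdr higher. Muscle fibre markers were higher in left legs for 2 of 5 at day 2. The part of these cells in the chemokine differences was not tested.

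Genes that act with chemokines were read from a list of 58, of which 51 were tested. Between the legs of tenotomy animals 32, 28 and 19 of the 51 were lower in left legs labelled tenotomy at days 2, 7 and 14, and 1, 1 and 2 were higher, beside 20.8%, 18.3% and 13.5% of all tested genes lower and 15.9%, 14.6% and 9.71% higher. At day 2 the largest differences among the called genes of the list were in Dock2, which links chemokine receptors to Rac in leukocytes (-3.38, adjusted p = 2.87e-15), and Itgb2, the common chain of leukocyte integrins (-3.15, adjusted p = 5.30e-17). At day 7 they were in Dock2 (-1.81, adjusted p = 8.51e-08) and Rgs2, a regulator of G-protein signalling (-1.66, adjusted p = 3.67e-13), and at day 14 in Rgs2 (-1.86, adjusted p = 1.82e-11) and Dock2 (-1.55, adjusted p = 1.83e-04). Of 13 tested genes of leukocyte adhesion 9 were lower at day 2, against the same 20.8% of all tested genes, among them Vcam1 and Icam1, the endothelial ligands of leukocyte integrins. The median over the 51 was -0.70, -0.43 and -0.33 on the log2 scale, beside medians of -0.02, 0.00 and -0.02 over all tested genes.

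Casting animals were compared in the same way, cast leg against uncast leg. At day 2 cast legs had lower signals than uncast control legs for 4 of 42 genes and higher signals for 1, against 13.3% and 11% of all tested genes. Both shares of the 42 were below those over all tested genes. The 4 were Ccl2, Ccl9, Ccl6 and Cxcl14, and Ccl17 was higher. Without the cast leg that stood apart 7 genes were lower and 1 higher, with Ccl12, Ccr1 and Ccr2 added to the lower ones (for Ccr2 log2 difference -0.69, adjusted p = 0.00944).

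Ccl2 had signals between 2.65 and 23.1 with a median of 16.4 in 10 cast legs, against signals between 3.57 and 84.7 with a median of 29.0 in 9 control legs at day 2 (log2 difference -1.19 ± 0.33 SE, adjusted p = 0.00306). The cast leg was the lower one in 8 of 9 animals, although the groups overlapped. Ccl9 had signals between 81.2 and 313 with a median of 102 in cast legs and between 109 and 679.9 with a median of 192 in control legs, lower in 9 of 9 animals (log2 difference -1.05 ± 0.24 SE, adjusted p = 3.57e-04). Ccl6 had signals between 119 and 734 with a median of 139 in cast legs and between 154 and 938 with a median of 282 in control legs (log2 difference -1.01 ± 0.27 SE, adjusted p = 0.00196). Without the cast leg that stood apart the log2 differences were -1.28 for Ccl2, -1.19 for Ccl9 and -1.23 for Ccl6, with -0.52 for Cxcl14 and 0.85 for Ccl17. Cxcl14 was lower by less (log2 difference -0.45 ± 0.16 SE, adjusted p = 0.0328), and its call was lost with the animal as a fixed term (adjusted p = 0.128). Ccl17, a ligand of Ccr4 made by dendritic cells and macrophages, had signals between 8.997 and 19.0 with a median of 14.3 in cast legs and between 2.66 and 12.4 with a median of 4.08 in control legs, higher in 9 of 9 animals (log2 difference 0.84 ± 0.28 SE, adjusted p = 0.0175). The receptors Ccr2 (-0.47), Cx3cr1 (-0.20) and Cxcr4 (0.33) and the ligands Cx3cl1 (-0.36) and Cxcl12 (0.02) did not pass, the values being log2 differences.

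At day 7 cast legs differed from control legs in 1 gene, Ccr2, against 4.22% of all tested genes higher and 4.55% lower. Ccr2 had signals between 61.1 and 111 with a median of 84.8 in 7 cast legs and between 23.3 and 98.7 with a median of 41.4 in 8 control legs, higher in 6 of 7 animals (log2 difference 0.83 ± 0.26 SE, adjusted p = 0.0238). Without cast leg replicate 1 the log2 difference was 0.74 (adjusted p = 0.0532), and with the mean of its 4 probe sets it was 0.47 (adjusted p = 0.165). The 1 gene called without that leg was Cxcr3, lower in cast legs. Ccl2 had signals between 11.3 and 98.6 with a median of 25.6 in cast legs and between 8.03 and 39.3 with a median of 19.2 in control legs and did not pass (log2 difference 0.51 ± 0.37 SE, adjusted p = 0.499). Fitting only the compared groups called 4 genes.

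At day 14 cast legs had higher signals than control legs for 14 of 42 genes, 12 ligands and 2 receptors, and lower signals for 0, against 7.17% and 6.04% of all tested genes. The CC ligands Ccl12, Ccl8, Ccl7 and Ccl2, the neutrophil attractant Cxcl5 and the receptors Ccr1 and Ccr2 were among them. The plot of single arrays shows how widely cast legs scattered.

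Ccl12 had signals between 5.70 and 128 with a median of 33.0 in 9 cast legs, against signals between 0.939 and 20.3 with a median of 4.14 in 9 control legs (log2 difference 1.89 ± 0.38 SE, adjusted p = 1.77e-04). Ccl8 had signals between 187 and 1461 with a median of 398 in cast legs and between 51.7 and 258 with a median of 121 in control legs (log2 difference 1.89 ± 0.33 SE, adjusted p = 1.17e-05). Ccl8 was higher in 9 of 9 animals and Ccl12 in 8 of 9 animals, with overlap in both. Ccl7 had signals between 15.0 and 78.5 with a median of 27.5 in cast legs and between 4.46 and 18.9 with a median of 11.1 in control legs (log2 difference 1.19 ± 0.28 SE, adjusted p = 0.00165). Ccl2 had signals between 7.44 and 70.8 with a median of 29.6 in cast legs and between 6.09 and 24.4 with a median of 14.6 in control legs and passed narrowly (log2 difference 0.93 ± 0.33 SE, adjusted p = 0.0487), with a call lost under 5 of its alternatives. Cxcl5 had signals between 1.42 and 138 with a median of 9.37 in cast legs and between 0.558 and 7.48 with a median of 1.15 in control legs, higher in 8 of 9 animals (log2 difference 1.42 ± 0.32 SE, adjusted p = 8.90e-04). Only 2 of the 9 cast legs lay above their array's 40th percentile.

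Ccr1 had signals between 17.1 and 95.5 with a median of 42.6 in cast legs and between 14.5 and 24.1 with a median of 19.5 in control legs at day 14 (log2 difference 1.00 ± 0.25 SE, adjusted p = 0.00349). Ccr2 had signals between 48.7 and 155 with a median of 92.9 in cast legs and between 25.5 and 97.9 with a median of 38.0 in control legs, higher in 9 of 9 animals (log2 difference 0.93 ± 0.23 SE, adjusted p = 0.00261). Both receptors overlapped between legs. Cxcl12 had signals between 413 and 1729 with a median of 514 in cast legs and between 311 and 388 with a median of 361 in control legs, and was the only gene of the 14 without overlap (log2 difference 0.78 ± 0.14 SE, adjusted p = 1.98e-05). Its other 2 probe sets gave log2 differences of -0.08 and -0.22, and the mean of the 3 gave 0.16 (adjusted p = 0.517). Cxcr4 (log2 difference 0.17, 95% interval -0.15 to 0.49), Cx3cr1 (0.12, -0.38 to 0.62) and Cx3cl1 (0.08, -0.29 to 0.45) did not pass. The remaining called genes were Ccl17 (1.05), Ccl6 (0.97), Ccl9 (0.83), Cxcl14 (0.64), Cxcl13, which draws B cells through Cxcr5 (0.63), and Ccl25 (0.56). Of these, the call of Ccl17 was lost without the 12 arrays of raised dimmest signals (adjusted p = 0.0668) and that of Cxcl13 with only the compared groups (adjusted p = 0.0954).

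**Figure D3:**
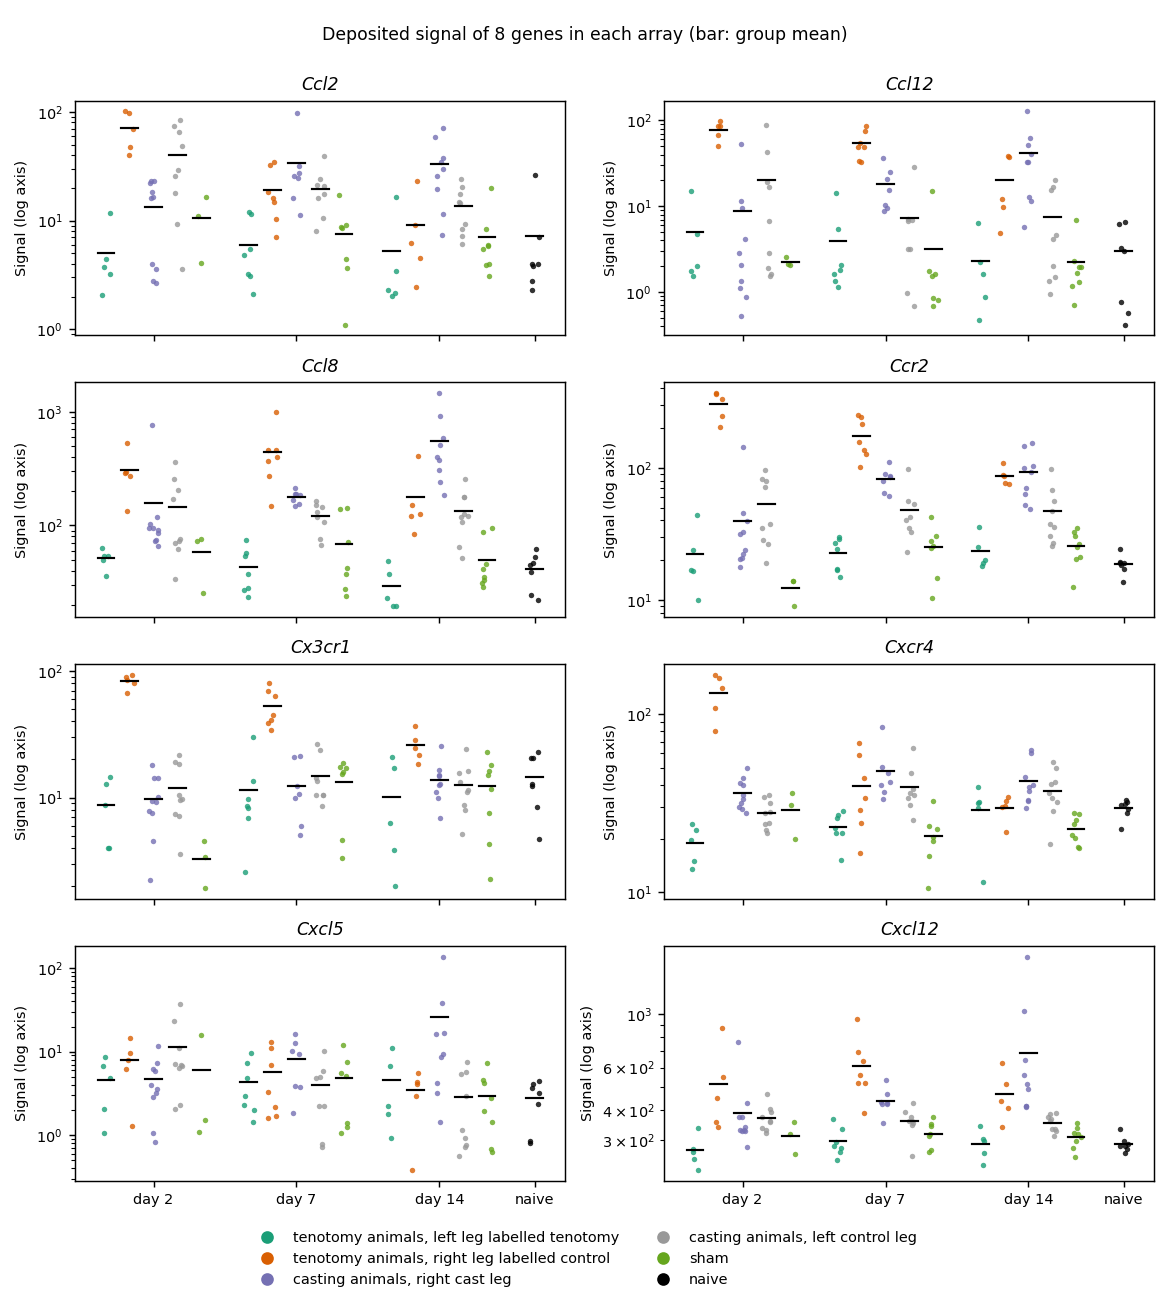
Deposited signal (log axis) of 8 chemokine genes in each of 111 arrays, by day and group, with a bar at each group mean. At day 2 the right legs labelled control of tenotomy animals lie above every other leg of that day in Ccr2, Cx3cr1 and Cxcr4, and at day 14 cast legs scatter widely, with Cxcl5 signals from 1.42 to 138.

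The difference between the 2 days was tested in casting animals too. The leg difference at day 14 minus that at day 2 passed for 13 of 42 genes, all with a positive sign, against 8.24% of all tested genes with a positive and 6.03% with a negative sign. The largest were Ccl12 (log2 difference 2.64 ± 0.53 SE, adjusted p = 1.68e-04), Ccl2 (log2 difference 2.12 ± 0.47 SE, adjusted p = 5.54e-04) and Cxcl5 (log2 difference 2.06 ± 0.45 SE, adjusted p = 5.24e-04), with 2.91, 2.20 and 2.05 without the cast leg that stood apart at day 2, where 13 genes again passed. Ccl17, higher in cast legs on both days, was not among the 13. Ccl2, for example, was lower in cast than in control legs at day 2 and higher at day 14.

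**Figure D4:**
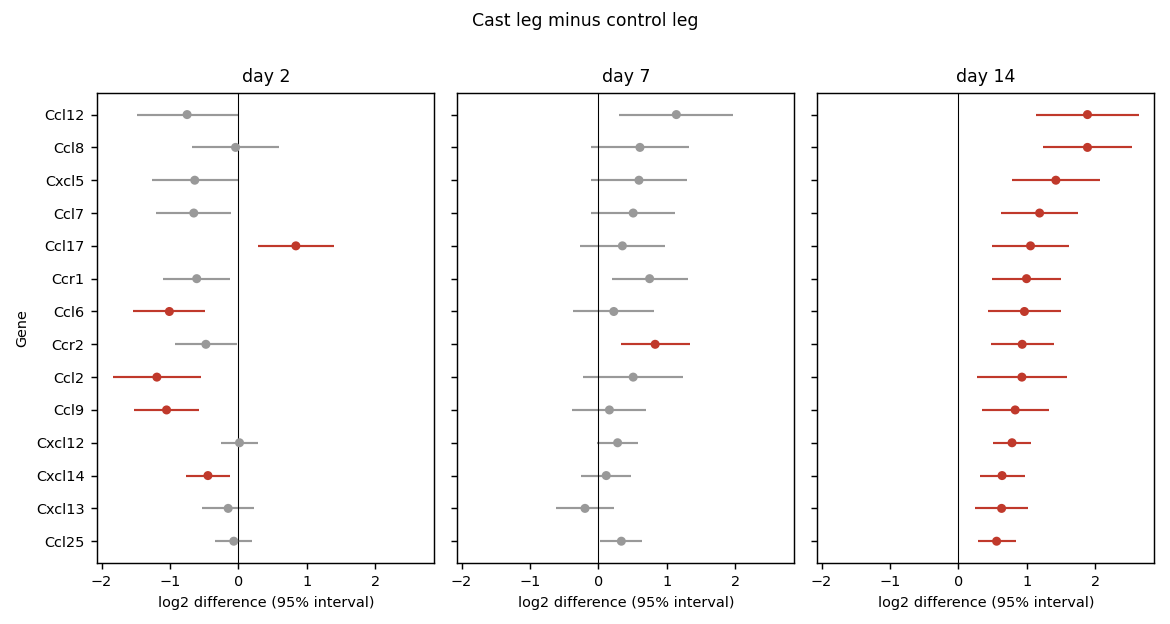
Log2 difference of the cast leg minus the control leg (x axis, with 95% intervals) for the 14 genes called on at least 1 day, at days 2, 7 and 14; red points passed the adjusted threshold and grey points did not. Ccl2, Ccl9 and Ccl6 lie left of 0 at day 2, and all 14 genes lie right of 0 at day 14, up to 1.89 for Ccl12 and Ccl8.

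Of all tested genes 13.3%, 4.55% and 6.04% were lower in cast legs at days 2, 7 and 14, and 11%, 4.22% and 7.17% higher. Beside these shares, 1 call in a list of 3 to 5 markers says little. Macrophage markers moved in the same comparisons in casting. Of the 9 listed markers 6 were lower in cast legs at day 2, 1 was higher at day 7 and 8 were higher at day 14. Without the cast leg that stood apart 8 were lower at day 2, and without cast leg replicate 1 at day 7 0 were called there. Their sum on day 2 was 1134 to 3768 in cast legs and 1376 to 5021 in control legs, and on day 14 it was 2829 to 6222 in cast legs and 1515 to 3321 in control legs. The cast leg that stood apart at day 2 was the highest of its group, at 3768. The summed signal of 4 neutrophil markers ranged widely within groups, at 88.2 to 3542 in cast legs and 49.3 to 4194 in control legs at day 14, and none of the 4 was called. Without cast leg replicate 1, Mmp8 of the 4 was called higher at day 7. Of 5 eosinophil and mast cell markers 2 were lower in cast legs at day 2, the mast cell proteases Cpa3 (-0.86, adjusted p = 1.07e-05) and Cma1 (-0.55, adjusted p = 0.0018), with summed signals of the 5 at 99.8 to 277 in cast legs and 209 to 317 in control legs. Without the cast leg that stood apart 3 of the 5 were lower, with Mcpt4 added. With all legs at day 2 Lyve1 of 3 lymphatic endothelial markers (-0.70, adjusted p = 0.0037), Kdr of 4 endothelial markers (-0.40, adjusted p = 0.021) and Dpt of 4 fibroblast markers (-0.32, adjusted p = 0.0329) were lower as well. Each was still called without the cast leg that stood apart. At day 7 only Kdr of these 4 lists was called, again lower (-0.49, adjusted p = 0.0288), and it was still called without cast leg replicate 1. None of the markers of these 4 lists was called at day 14. The part of these cells in the casting differences was not tested. Of the 51 genes that act with chemokines 1 was higher and 11 were lower in cast legs on day 2 (11% and 13.3% of all tested genes), and 15 were lower without the cast leg that stood apart. On day 7 none was higher and 3 were lower, near the shares over all tested genes (4.22% and 4.55%), and on day 14 there were 12 higher and 0 lower (7.17% and 6.04%). Without cast leg replicate 1 the counts of day 7 were the same. At day 2 the largest differences among the called genes were in Itgam, an integrin chain of monocytes and neutrophils (-0.79, adjusted p = 0.00151), and Itgb2 (-0.66, adjusted p = 0.0124). At day 7 the 2 largest of the 3 called were in Dpp4, a peptidase that trims chemokines (-0.63, adjusted p = 0.00559), and Jam2, an endothelial adhesion molecule (-0.32, adjusted p = 0.00668), both lower. Ppbp, a platelet chemokine, had a larger difference, upward, that was not called (0.76, adjusted p = 0.194). Itgb2, also upward and not called, was close to Dpp4 in size (0.62, adjusted p = 0.0863). At day 14 the largest of the called genes were the cytokine Il6 (1.60, adjusted p = 3.93e-05) and Selp, the P-selectin that slows leukocytes in venules (0.92, adjusted p = 0.00964), both higher.

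Uncast control legs of casting animals were set against naive legs. They had higher signals than naive legs for 15 of 42 genes and lower signals for 1 at day 2 (16.6% and 11.3% of all tested genes). At day 7 the counts were 6 and 0 (13.6% and 9.44%), and at day 14 they were 7 and 2 (16.1% and 11.4%). The counts of higher genes at days 7 and 14 were near the shares over all tested genes. Ccl2 was the largest at day 2, with signals between 3.57 and 84.7 with a median of 29.0 in control legs and between 2.32 and 26.2 with a median of 3.99 in 7 naive legs (log2 difference 1.82 ± 0.37 SE, adjusted p = 5.95e-05). Ccl8 (1.42) and Ccl7 (1.41) followed. At day 7 Ccl8 (1.45), Ccl2 (1.22) and Ccr2 (1.09) led, and at day 14 Ccl8 (1.52), Ccr2 (1.07) and Cxcl10 (1.01), all in log2 differences from naive. Control legs are left legs of another cohort than the naive right legs, so leg side, cohort and the effect of a cast on the other leg cannot be told apart. Macrophage markers were higher than naive in 7, 6 and 5 of 9 at days 2, 7 and 14, all 5 muscle fibre markers were lower at each day, and the part of either was not tested.

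Few genes were called between sham and naive legs. At day 2 limma called 0 of 42 genes, with 2 at an unadjusted p under 0.05 (0% of all tested genes higher and 0% lower). One of the 2 was Cx3cr1, with 4.50, 3.39 and 1.92 in sham legs, all below the naive legs (log2 difference -1.28 ± 0.39 SE, adjusted p = 0.336), and its comparison with sham at day 2 above rests on these 3 legs. The other was Cxcr3, higher in sham legs with overlap (0.71). At day 7 it called 1, Ccl11, lower in sham legs, with signals between 50.3 and 133 with a median of 88.1 in sham legs and between 132 and 172 with a median of 149 in naive legs (log2 difference -0.81 ± 0.17 SE, adjusted p = 0.00246), against 0.381% of all tested genes lower and 0.25% higher. At day 14 it called 0, with 3 at an unadjusted p under 0.05 (1.02% of all tested genes higher and 1.25% lower).

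In naive legs the receptors of the monocyte axis were dim. Ccr2 lay between 13.7 and 24.4 with a median of 19.0 and Cx3cr1 between 4.72 and 22.8 with a median of 12.7, and Cxcr4 lay between 22.6 and 32.9 with a median of 30.8. The ligand Cx3cl1 lay between 11.7 and 32.8 with a median of 15.5 and Cxcl12 between 264 and 333 with a median of 284 in the same legs. Sham legs at day 14 overlapped them in all 5 genes, with Cxcr4 between 17.8 and 27.8 with a median of 22.5 and Cxcl12 between 255 and 353 with a median of 314.

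The leg differences of the 2 models were then compared directly. With the labels as given, the left-minus-right difference of tenotomy animals was below the cast-minus-control difference for 13 of 42 genes and above it for 2 at day 2 (19.3% and 15.6% of all tested genes), for 14 and 0 at day 7 (16.8% and 12.7%), and for 13 and 0 at day 14 (16.7% and 12%). The largest at day 2 were Ccr2 (log2 difference -3.16 ± 0.38 SE, adjusted p = 3.34e-11), Ccr1 (-2.89) and Cxcr4 (-2.86). Ccl12 (-4.09), Ccl8 (-3.75) and Ccr2 (-3.54) led at day 7, and Ccl8 (-4.19), Ccl12 (-3.66) and Ccr2 (-2.66) at day 14.

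By leg side, as the description of the study has it, both models treat the right leg, and the right-minus-left difference of tenotomy animals was set against that of casting animals. It was larger in tenotomy animals for 16 of 42 genes and smaller for 2 at day 2 (19.8% and 14.3% of all tested genes), and larger for 9 and smaller for 0 at day 7 (11% and 7.8%). At day 14 limma called 0, with 7 genes at an unadjusted p under 0.05 (5.16% of all tested genes with a larger and 2.98% with a smaller difference). Ccl2 (log2 difference 4.26 ± 0.55 SE, adjusted p = 2.71e-10), Ccr2 (4.11) and Ccr1 (4.10) were the largest at day 2, and Ccl8 (log2 difference 2.54 ± 0.52 SE, adjusted p = 8.40e-05), Cx3cr1 (2.24) and Ccr2 (1.88) at day 7. Cx3cr1 was between 34.2 and 80.6 with a median of 45.2 in right legs of tenotomy animals at day 7, against values between 5.09 and 21.2 with a median of 10.7 in cast right legs, with signals between 2.59 and 30.3 with a median of 8.56 in left legs of tenotomy animals and between 8.54 and 26.5 with a median of 12.1 in uncast left legs. Since each model has its own cohort, the difference in model and in cohort cannot be told apart.

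Neighbouring genes did not always move together. In the reference annotation GRCm38.p6, Ccl2, Ccl7, Ccl11, Ccl12, Ccl8 and Ccl1 lie next to each other in this order on chromosome 11. Of these 6, Ccl2, Ccl7, Ccl12 and Ccl8 were higher in right legs labelled control than in sham legs at day 2, whereas Ccl11, between Ccl7 and Ccl12, was lower (-1.09) and Ccl1 was not called (-0.16, 95% interval -1.04 to 0.71). In cast legs at day 14 the same 4 were called and Ccl11 (0.04) and Ccl1 (0.07) were not. In a second run on this chromosome, Ccl5, Ccl9, Ccl6, Ccl3 and Ccl4, the neighbours Ccl9 and Ccl6 were called in both comparisons, Ccl5 in the comparison with sham (1.37) and not in cast legs (0.51), a difference that was not tested, and Ccl4 in neither. On chromosome 9 a run of receptor genes ends with Ccr1, Ccr1l1, Ccr3 and Ccr2. Ccr1 and Ccr2 were called in both comparisons, while Ccr1l1, a receptor-like gene between them, was not (0.37 and 0.20), and Ccr3 was not tested.

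**Figure D5:**
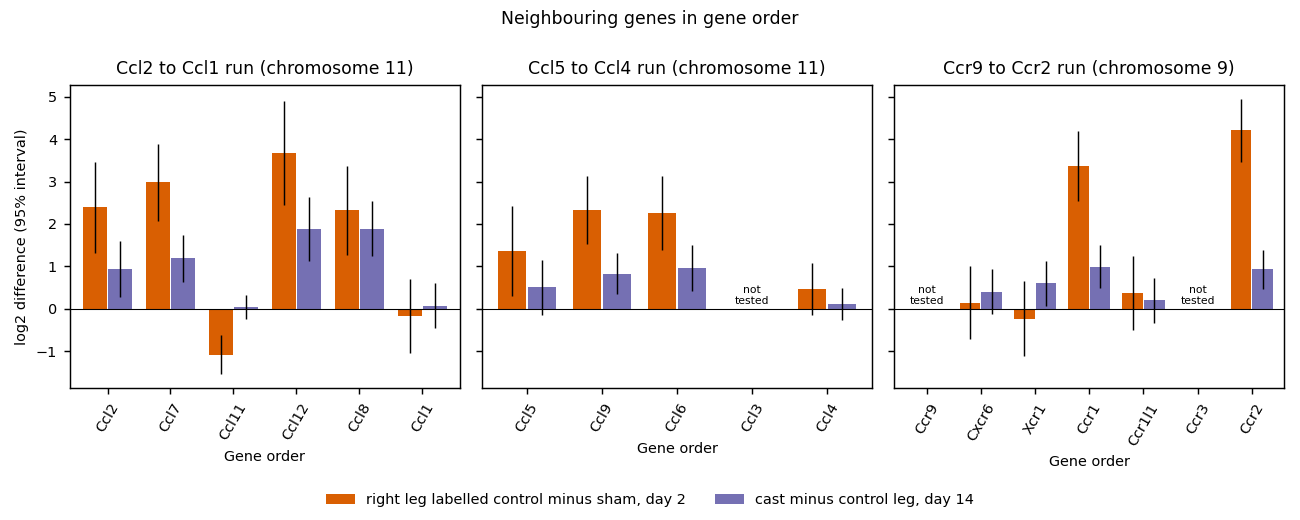
Log2 differences (bars from 0, with 95% intervals) of neighbouring genes, in their order along 2 runs of chromosome 11 and 1 run of chromosome 9, for the right leg labelled control minus sham at day 2 (orange) and the cast minus control leg at day 14 (purple). Ccl11 points down between tall bars of Ccl7 and Ccl12, and Ccr1l1 is low between Ccr1 and Ccr2.

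Ligands and their receptors were not always called together. Ccr2 and its ligands Ccl2, Ccl7 and Ccl12 were called together in the leg comparisons of tenotomy at days 2 and 7 and of casting at day 14. In contrast, Cx3cr1 was called in each tenotomy leg comparison and Cx3cl1 in none of them. Cx3cl1 signals over all groups ran from 4.18 to 49.1, and the gene was higher than naive in the uncast control legs at each day (log2 differences 0.56, 0.56 and 0.57). Cxcr3, the receptor of Cxcl9, Cxcl10 and Cxcl11, was called in none of the 6 leg comparisons, while Cxcl10 was called in the tenotomy legs at days 2 and 7. Cxcr2, the receptor of Cxcl5, was above its array's 40th percentile in 11 of 111 arrays and was called in none of the 6. The receptors Ccr4, Ccr6, Ccr10, Cxcr5 and Xcr1, which are known from lymphocytes and dendritic cells, were called in none of the 6 either. Ccr6 was above its array's 40th percentile in 97 of 111 arrays. Ccr4, Ccr10, Cxcr5 and Xcr1 were above it in only 24, 39, 26 and 40, so their missing calls say little.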

How the data were processed

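Gastrocnemius RNA, extracted with Trizol and RNeasy per the labels' protocols, was hybridised to 111 Affymetrix arrays. The deposited intensity values are linear signals per probe set made with MAS5 and GCOS, per the submitters' processing notes; their versions are not given in the sources used here. The 2% trimmed mean of each array lay between 99.955 and 99.965. Of 45101 probe sets 34958 listed 1 gene in the platform annotation, and 34754 of these matched a reference gene. Chemokine genes and gene lists were chosen with earlier results of these data known.

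Signals were transformed to log2(signal + 3.982), the constant being the 20th percentile of all values, so that changes of dim genes are understated. A gene was tested when it passed its array's 40th percentile (signals of 9.65 to 17.84) in at least 5 arrays. All 16 groups were fitted together with limma 3.58.1 (R 4.3.3; lmFit, eBayes with an intensity trend), and legs of 1 animal were allowed to correlate (duplicateCorrelation, estimate 0.09636). The Benjamini-Hochberg adjustment ran over 16029 genes within each of 26 comparisons, with a threshold of 0.05. Both legs came from 1 animal in 41 of 70 animals, so legs are paired by the labels; deviations of the 2 legs of an animal correlated by 0.0634 on average (41 pairs), against -0.0099 for legs of different animals (260 pairs). The fit was tested on simulated data.

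Genes named in the text are those past the threshold in comparisons of legs and with sham, up to 20 per comparison, the 3 largest in other comparisons, and Ccl2, Ccr2, Cx3cl1, Cx3cr1, Cxcl12 and Cxcr4 throughout. Alternatives were a pseudocount of 16, no filter, quantile normalization, the mean of probe sets, no block or a fixed block, fits of the compared groups alone, and arrays left out. Figures were drawn with matplotlib 3.10.9.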

Additional observations from a re-analysis of the deposited data

Results flagged for a closer look

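Single legs stood apart from the rest of their group in 32 of 330 combinations of a gene and a group of up to 10 legs, over 22 genes, 22 on the high side and 10 on the low side. A leg was counted when its gap to the nearest leg, relative to the range of the group, passed Dixon's critical value, which chance alone passes in about 5% of groups. The values are signals, each with the nearest leg of the same group. Among cast legs at day 2, replicate 10 was high for Ccl12 (53.2, nearest 11.4), Ccl6 (734, nearest 234), Ccl8 (759, nearest 119), Ccr1 (46.7, nearest 18.9), Ccr2 (143, nearest 45.5) and Cxcl12 (767, nearest 426). Among cast legs at day 7, replicate 1 was high for Ccl6 (786, nearest 362), Ccl9 (683, nearest 272) and Ccr1 (64.5, nearest 36.3). Among uncast control legs at day 14, replicate 2 was low for Ccl11 (89.8, nearest 116) and replicate 8 was high for Ccl5 (61.3, nearest 10.7) and Cxcr6 (28.5, nearest 14.9). Among uncast control legs at day 2, replicate 6 was high for Ccl5 (8.20, nearest 2.52), replicate 8 was low for Cxcl16 (40.8, nearest 53.8) and replicate 3 was low for Cxcr6 (0.832, nearest 7.42). Among uncast control legs at day 7, replicate 8 was low for Ccl11 (104, nearest 121), replicate 4 was high for Ccl12 (29.0, nearest 7.17), replicate 6 was low for Ccl7 (3.00, nearest 9.99), replicate 5 was low for Cxcl10 (2.32, nearest 10.6) and Cxcl12 (257, nearest 346) and replicate 1 was high for Cxcr6 (29.6, nearest 12.2). Among naive legs, replicate 3 was high for Ccl2 (26.2, nearest 7.06) and replicate 1 was high for Ccl9 (165, nearest 115). Among sham legs at day 14, replicate 8 was high for Ccl12 (6.91, nearest 2.29) and replicate 7 was high for Ccl2 (20.0, nearest 8.41). Among sham legs at day 7, replicate 3 was high for Ccl12 (15.0, nearest 1.76) and replicate 7 was low for Cxcl16 (26.8, nearest 41.8). Among right legs labelled control at day 14, replicate 4 was low for Cxcr4 (21.8, nearest 30.2). Among right legs labelled control at day 2, replicate 3 was high for Cxcl14 (773, nearest 426). Among left legs labelled tenotomy at day 14, replicate 2 was high for Ccl2 (16.4, nearest 3.47) and replicate 2 was low for Cxcr4 (11.4, nearest 29.8). Among left legs labelled tenotomy at day 2, replicate 1 was high for Cx3cl1 (24.1, nearest 17.6). The cast leg that was high for 6 genes at day 2 also had the highest summed macrophage markers of its group (3768), and cast leg replicate 1 at day 7 had the highest of its own (4136). Their part in these values was not tested.

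Effects of the same contrast differed between days or models by an interaction test, and the 3 largest per comparison are given as differences of log2 differences. Between day 14 and day 2 the difference of cast minus control legs changed in Ccl12 (2.64), Ccl2 (2.12) and Cxcl5 (2.06). The difference of left legs labelled tenotomy minus right legs labelled control changed over the same days in Ccr1 (3.40), Ccl2 (2.60) and Ccl7 (2.53). With the labels as given, the tenotomy difference minus the casting difference was largest in Ccr2 (-3.16), Ccr1 (-2.89) and Cxcr4 (-2.86) at day 2, Ccl12 (-4.09), Ccl8 (-3.75) and Ccr2 (-3.54) at day 7 and Ccl8 (-4.19), Ccl12 (-3.66) and Ccr2 (-2.66) at day 14. By leg side, right minus left, it was largest in Ccl2 (4.26), Ccr2 (4.11) and Ccr1 (4.10) at day 2 and Ccl8 (2.54), Cx3cr1 (2.24) and Ccr2 (1.88) at day 7. Model and cohort cannot be told apart in these values.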

How the results depend on the processing

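Counts of called genes (of 42) stayed within 1.5 times the reported count in most alternatives. Exceptions were left legs labelled tenotomy minus sham at day 14 (2 reported), with 1 at a pseudocount of 16, 1 without the filter, 1 with the mean of probe sets, 1 with no replicate block and 4 when only the compared groups were fitted. The same contrast at day 2 (0 reported) gave 1 under quantile normalization, 1 without the 12 arrays whose dimmest signals were raised and 1 with only the compared groups, and at day 7 (1 reported) 0 without those arrays. Cast minus control at day 7 (1 reported) gave 2 under quantile normalization and 4 with only the compared groups, the difference of models by side at day 14 (0 reported) gave 1 under quantile normalization, and uncast legs minus naive at day 14 (9 reported) gave 14 with only the compared groups. The cause was not tested. Leaving out 1 array gave, at days 2 and 14, 15 to 18 and 5 to 8 for left minus right tenotomy legs, 14 to 18 and 8 to 10 for right legs minus sham, 0 to 2 and 1 to 2 for left legs minus sham (2 at day 2 without left-leg replicate 3), 13 to 17 and 11 to 14 for the models as labelled and 16 to 18 and 0 to 2 by side. It gave 6 to 9 for the day difference of tenotomy, 0 to 0 for sham minus naive at day 2, and, without the cast leg that stood apart, 8 to 8 for casting at day 2. With the animal as a fixed replicate block, the legs being paired within animals, counts were 4, 1 and 13 for casting and 16, 16 and 5 for tenotomy at days 2, 7 and 14, and no count moved by over 1.5 times.

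Log2 differences of single genes changed sign in 25 cases. Under quantile normalization they were Cx3cl1 cast day 14 -0.008, Cxcr4 left minus right day 14 0.006, Cx3cl1 right minus sham day 2 -0.032 and Cx3cl1 right minus sham day 14 -0.161. With the mean of probe sets they were Cx3cr1 cast day 2 0.188, Cxcl12 cast day 2 -0.626, Cxcl12 cast day 7 -0.057, Cx3cl1 cast day 14 -0.263, Cxcl12 right minus sham day 2 -0.07, Cxcl12 right minus sham day 14 -0.164, Cx3cl1 right minus sham day 14 -0.194, Ccr2 left minus sham day 2 -0.157, Cx3cl1 left minus sham day 2 0.004, Cx3cr1 left minus sham day 2 -0.137, Ccr2 left minus sham day 7 0.043, Cxcl12 left minus sham day 7 0.009 and Ccr2 left minus sham day 14 0.162. Without the 12 arrays they were Cx3cl1 cast day 7 0.059 and Cx3cl1 cast day 14 -0.047, and with 1 array left out Cx3cl1 right minus sham day 2 -0.125, Ccl2 right minus sham day 14 -0.159, Cxcr4 left minus right day 14 0.134, Cx3cl1 right minus sham day 14 -0.103, Cxcl12 cast day 2 -0.1 and Cx3cl1 cast day 7 0.025. The ranges over single arrays left out were -0.125 to 0.271 for Cx3cl1 and -0.159 to 0.349 for Ccl2 (right minus sham, days 2 and 14), -0.103 to 0.283 for Cx3cl1 (right minus sham, day 14) and -0.24 to 0.134 for Cxcr4 (left minus right, day 14). Of these only Cxcl12, right minus sham at days 2 and 14, had been called. The alternatives without the 12 arrays and without cast leg replicate 10 at day 2 or replicate 1 at day 7 were chosen after seeing the data. Signal over background limits what can be read from Cxcl5, Cxcr2, Ccl5, Ccl12 and Cxcl9, which passed their array's 40th percentile in 9, 11, 21, 36 and 43 of 111 arrays. The same holds for Ccl1, Ccr4, Cxcr5, Ccr1l1, Ccr10 and Xcr1, with 18, 24, 26, 35, 39 and 40 arrays.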
